A study of Mus musculus with 5 samples.

Results

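The desmosome genes examined here were *Dsc1*, *Dsc2*, *Dsc3*, *Dsg1a*, *Dsg2*, *Dsg3*, *Dsp*, *Jup*, *Pkp1* and *Pkp3*, 10 of the 22380 protein-coding genes annotated on the mouse genome build mm9. A ChIP-seq peak was given to a gene if its centre lay in the gene body or within 10 kb of it, or if the nearest protein-coding transcription start was that gene's. By this rule 31 of 21270 SOX11 peaks and 3 of 2669 SOX4 peaks belonged to the 10 genes. The peaks came from primary keratinocytes of newborn Krt14-Cre;Sox11fl/fl;Sox4fl/fl mice, labelled as mixed 129SvEx:C57BL/6 and bred with a Krt14-Cre line on FVB/N, in which Cre driven by the keratin 14 promoter deletes floxed alleles of both endogenous factors. The cells carried a lentivirus with doxycycline-inducible *Sox11* or *Sox4* tagged with FLAG, received doxycycline for 24 h, and were precipitated with an anti-FLAG antibody, so the peaks mark binding of an induced, tagged factor. There were 2 SOX11-FLAG replicates, 2 SOX4-FLAG replicates and 1 control library from keratinocytes of the same genotype, called input in its title and IgG in its antibody field, for which no peak list was analysed here. Each list pooled both replicates and gave coordinates alone. From these pooled lists neither depth, peak strength nor spread between replicates can be given, individual replicates were not analysed here, and no test between factors was made. Shares carry 95% Wilson intervals, which cover counting error over peaks and not variation between cultures.

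Desmosomes are spot-like junctions that join neighbouring keratinocytes and anchor their keratin filaments, which gives the epidermis its resistance to mechanical stress. The adhesive contact is made by desmosomal cadherins, the desmogleins (*Dsg*) and desmocollins (*Dsc*), whose tails bind the armadillo proteins plakoglobin (*Jup*) and the plakophilins (*Pkp*), and desmoplakin (*Dsp*) ties this plaque to keratin. In stratified epidermis the desmosomal cadherins are layered, with *Dsg3* and *Dsc3* strongest in basal cells and *Dsg1* and *Dsc1* in the differentiating layers above.

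The sequences of 5 SOX11 peaks at the plaque genes are given so that the DNA under these peaks can be read directly. For each gene the earliest-listed peak shared with SOX4 was taken, or else the earliest-listed peak within 10 kb of the gene, and the *Jup* promoter peak was added after its values were seen. The *Dsp* peak, chr13:38236840-38237097, lay between genes upstream of the *Dsp* start. The *Jup* intron peak, chr11:100248962-100249219, lay in intron 1, and the *Jup* promoter peak, chr11:100258958-100259215, covered the gene start. The *Pkp1* peak, chr1:137787788-137788045, lay in intron 2, and the *Pkp3* peak, chr7:148264852-148265109, lay in intron 1 beside an internal transcription start. All are + strand sequence of mm9, and capitals mark exact matches on either strand to the SOX core (CATTGT or CTTTGT) or to the AP-1 core (TGAGTCA or its reverse complement TGACTCA).
Dsp upstream peak: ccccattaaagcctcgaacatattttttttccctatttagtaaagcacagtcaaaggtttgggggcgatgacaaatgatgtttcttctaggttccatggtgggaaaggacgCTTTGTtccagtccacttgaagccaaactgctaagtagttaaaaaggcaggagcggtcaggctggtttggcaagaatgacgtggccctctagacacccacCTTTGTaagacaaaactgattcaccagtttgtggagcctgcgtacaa
Jup intron peak: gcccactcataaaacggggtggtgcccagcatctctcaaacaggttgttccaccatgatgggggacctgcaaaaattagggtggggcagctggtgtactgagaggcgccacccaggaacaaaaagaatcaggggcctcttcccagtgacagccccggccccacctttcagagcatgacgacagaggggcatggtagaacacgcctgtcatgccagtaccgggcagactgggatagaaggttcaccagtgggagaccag
Jup promoter peak: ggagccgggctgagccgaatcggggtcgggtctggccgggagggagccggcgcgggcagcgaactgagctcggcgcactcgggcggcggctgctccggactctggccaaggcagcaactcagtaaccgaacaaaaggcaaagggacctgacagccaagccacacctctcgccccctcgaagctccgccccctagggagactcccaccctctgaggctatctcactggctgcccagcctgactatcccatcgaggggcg
Pkp1 intron peak: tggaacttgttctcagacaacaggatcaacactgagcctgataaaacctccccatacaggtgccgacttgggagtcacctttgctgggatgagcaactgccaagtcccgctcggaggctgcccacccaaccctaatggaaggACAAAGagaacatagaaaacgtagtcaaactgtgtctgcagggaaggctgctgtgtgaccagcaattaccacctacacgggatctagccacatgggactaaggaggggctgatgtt
Pkp3 internal promoter peak: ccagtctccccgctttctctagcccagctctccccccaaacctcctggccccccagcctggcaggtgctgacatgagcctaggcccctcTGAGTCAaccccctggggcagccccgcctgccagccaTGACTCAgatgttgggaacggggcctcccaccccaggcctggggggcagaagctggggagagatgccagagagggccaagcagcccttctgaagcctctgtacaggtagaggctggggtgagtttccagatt
The *Dsp* peak held CTTTGT at bases 112 to 117 and again at bases 212 to 217. The *Pkp1* peak held a SOX core on the minus strand at bases 143 to 148, and the *Pkp3* peak held AP-1 cores at bases 90 to 96 and 127 to 133 with no SOX core. Neither *Jup* peak held an exact SOX or AP-1 core, which says only that these letters are not in these windows. The *Jup* intron peak held the 10-letter SOX motif with 1 mismatch. The 10-letter SOX and AP-1 motifs used here and below were read from the authors' published motif logos and serve as alternatives to the cores. Their letters are not printed here.

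All 10 genes had at least 1 SOX11 peak, against a background of 57.0% of all protein-coding genes and 64.4% of the 7391 genes whose bodies were as long as those of the members (12.29 to 47.81 kb). SOX4 peaks were found at 3 of the 10 genes, *Dsp*, *Dsg3* and *Dsc1*, against 13.0% of all genes and 13.5% of genes in that range of lengths. Both counts depended on list length. With as many early-listed SOX11 peaks as the SOX4 list holds, 4 members had a SOX11 peak. The earlier part of the SOX4 list, cut at its middle, left 1 member with a SOX4 peak. Shares of all genes under these cuts are not given here. The SOX11 peaks were spread unevenly. *Dsp* and *Pkp1* had 6 each, *Jup* and *Dsg3* 5 each, *Dsc3* 4 and *Dsc1* 2, while *Dsc2*, *Dsg1a*, *Dsg2* and *Pkp3* had 1 each. At least 5 SOX11 peaks were thus found at 4 of the 10 genes, a number reached by 4.62% of all protein-coding genes. These 4 genes had bodies of 28.81 to 47.81 kb, against a median of 15.4 kb for all protein-coding genes. The share with at least 5 peaks among genes in the members' range of lengths is not given here, and the part of gene length was not tested. For the 4 genes with a single peak the count was common, since 57.0% of all genes had at least that many. Of the 31 peaks, 20 met both arms of the rule, 4 met it by lying in or near the gene body alone and 7 by the nearest start alone, and 1 peak between *Dsg3* and *Dsg2* was counted for both.

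**Figure D1:**
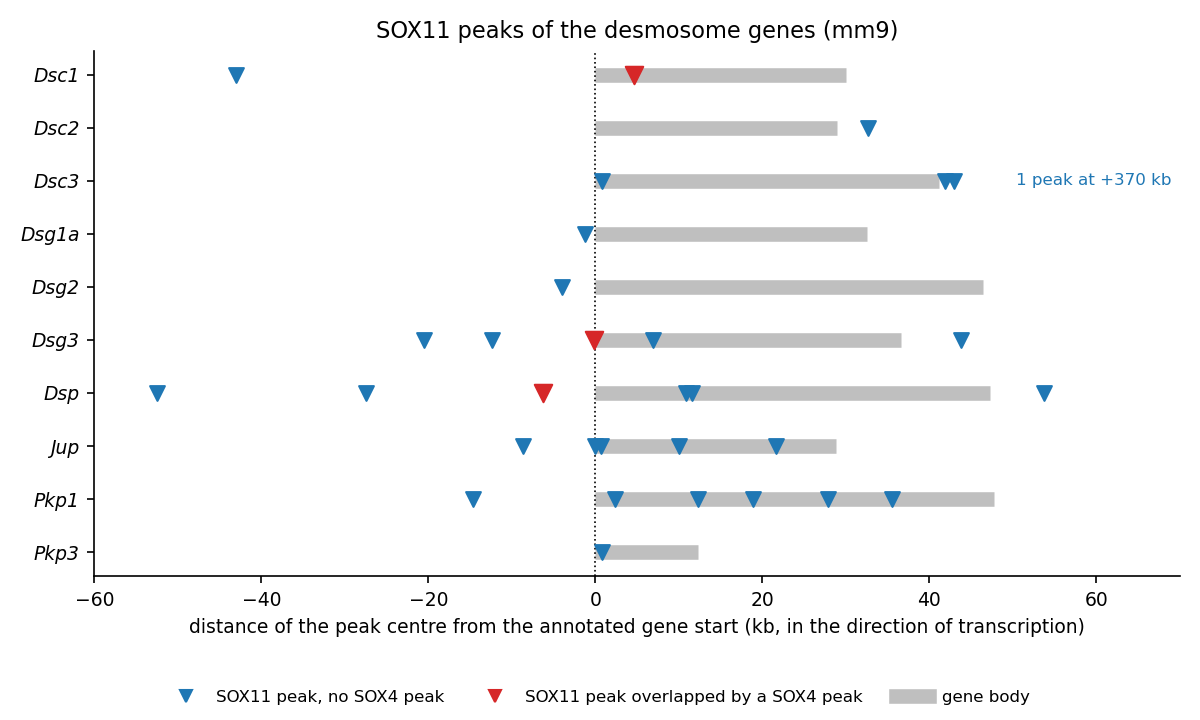
Distance of each SOX11 peak centre from the annotated start of its gene, in kb and in the direction of transcription, with gene bodies in grey and the 3 peaks that overlap a SOX4 peak in red. *Jup* and *Pkp1* carry most of their peaks inside the gene, with 3 in introns of *Jup* and 5 in introns of *Pkp1*, whereas 1 *Dsc3* peak lies 369990 bp from the start, beyond the axis.

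*Dsp*, which encodes the plakin that holds keratin filaments at the plaque, was the only plaque gene with a SOX4 peak. Its shared site lay at -6228 bp from the start (minus signs mark positions upstream), where SOX11 peak number 6031 and SOX4 peak number 2406, chr13:38236846-38237185, had centres 47 bp apart. This is the *Dsp* sequence with 2 SOX cores printed above. The other *Dsp* peaks had no SOX4 counterpart. They lay at -27453 and -52485 bp, as a pair in intron 1 at 10885 and 11548 bp from the start, and 53777 bp from the start, past the gene's end. That last peak was in an exon of the neighbouring gene *Snrnp48*, 166 bp from its start, and belonged to *Dsp* only through the 10 kb flank. The intron pair met the rule by lying in the body, since the nearest protein-coding start was that of *Gm10129*.

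*Jup* encodes plakoglobin, which binds the tails of desmosomal cadherins and also those of classical cadherins. Its 5 SOX11 peaks gave the highest density of the members, 10.24 per 100 kb of gene body and flanks, followed by *Pkp1* at 7.373 and *Dsp* at 5.948. The density over all genes is not given here. The *Jup* peaks lay at -8625, -10, 637, 9986 and 21618 bp from the gene start, so the promoter, intron 1 and intron 9 were all marked. The peak at -8625 bp was nearest to the start of *Leprel4* and belonged to *Jup* only through the flank. No *Jup* peak held an AP-1 core, and only the intron 9 peak held a SOX core. Sequence composition varied among these peaks. The promoter peak had a GC content of 68.22% and the peak at 637 bp had 64.73%, compared with 48.06% in the intron 9 peak. The peak at -8625 bp had 60.85% and the peak at 9986 bp had 57.75%. *Jup* peaks were also listed early, with a median number of 3100 in a list of 21270. The earliest, number 1707, was the intron 1 peak printed above. The SOX4 peak nearest to *Jup* was 63.3 kb from the gene body and nearest to the start of *Eif1*.

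*Pkp1*, the plakophilin whose loss causes fragile skin, had SOX11 peaks along most of its length. Peaks lay at 2367 bp in intron 1, at 12262, 18892 and 27867 bp in intron 2 and at 35509 bp in intron 6, with a sixth, the earliest listed (number 2350), at -14687 bp. SOX cores occurred in 3 of these 6 peaks and an AP-1 core in 1, and no peak held both. No SOX4 peak met the rule, and the nearest was 18.93 kb from the gene body and closest to the start of *Tnnt2*. *Pkp3*, another epidermal plakophilin, had a single peak, number 7824, at -65 bp from an internal start and 864 bp from the first. Its SOX core count was 0 and its AP-1 core count was 2, with 1 of the AP-1 cores at the peak centre. The nearest SOX4 peak was 138.5 kb from its body.

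Among the cadherin genes, *Dsg3*, the desmoglein of the basal layers and the target of autoantibodies in pemphigus vulgaris, had the most SOX11 peaks and the earliest-listed one. SOX11 peak number 686, chr18:20668495-20668752, lay in its promoter at -181 bp and overlapped SOX4 peak number 1081, chr18:20668434-20668773, with centres 20 bp apart. A SOX core lay 2 bases from the centre of this peak in the upstream direction, and it held no AP-1 core. The other *Dsg3* peaks lay at -20535 and -12318 bp, at 6873 bp in intron 1, and at 43784 bp, past the gene's end. The last of these was the peak shared with *Dsg2*, a broadly expressed desmoglein prominent in simple epithelia, at -3986 bp from the *Dsg2* start. It was the single peak of *Dsg2* and held both cores.

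*Dsg1a*, a desmoglein gene of the differentiating layers, had 1 SOX11 peak at -1207 bp, which was among the last of the list at number 20967 and held SOX, AP-1 and TEAD cores (TEAD, GGAATG). Mouse *Dsg1a* has close paralogs in *Dsg1b* and *Dsg1c*, and short reads from identical sequence cannot be placed uniquely. Of the 50-base words in *Dsg1a* and its flanks 70.2% occurred once in the genome, compared with 67.3% in *Dsg1b*, 83.7% in *Dsg1c* and between 94.99 and 99.36% in the other 9 members. *Dsg1b* had 0 SOX11 peaks and *Dsg1c* had 2, against a median of 1 for all protein-coding genes. Whether lost reads lowered any of the *Dsg1* counts was not tested.

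The desmocollins pair with desmogleins in the adhesive contact. *Dsc3*, the basal desmocollin, had 4 SOX11 peaks, of which number 1619 lay in intron 1 at 858 bp from the start and held 3 SOX cores. A pair lay past the gene's end, at 41837 and 42927 bp from the start, and the last, at 369990 bp, was given to *Dsc3* by nearest start alone. *Dsc2*, the most widely expressed desmocollin, had 1 peak past its end at 32652 bp. *Dsc1*, the desmocollin of the upper layers, had a peak at -43067 bp and a peak in the coding part of exon 3 at 4688 bp. The exon peak, number 13454, overlapped SOX4 peak number 1503 with centres 21 bp apart. It held no exact SOX, AP-1 or TEAD core, but it did hold the 10-letter SOX and AP-1 motifs with 1 mismatch. It stood late in the SOX11 list for a shared site. Between numbers 12763 and 14889 of that list, 2.91% of peaks overlapped a SOX4 peak, compared with 62.0% of the first 2127.

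All 6 cadherin members lie in 1 cluster with *Dsg1b*, *Dsg1c* and *Dsg4*, and the region from 10 kb before to 10 kb after these 9 genes, chr18:20109431-20773022, spans 663.6 kb. SOX11 peaks numbered 14 in this region (21.1 per Mb) and SOX4 peaks 2 (3.01 per Mb). Windows of the same length across the chromosomes had a median of 4 SOX11 peaks and a mean of 5.47, and 10.8% of 7743 windows had at least 14. For SOX4 the median was 0, and 17.6% of windows had at least 2. The cluster was therefore in the upper part of the range for both factors without standing outside it. Of its 14 SOX11 peaks, 12 belonged to members and 2 were nearest to *Dsg1c*. By position 10 lay between genes, 2 in introns, 1 in an exon and 1 in a promoter. The longest gap, 180.2 kb, ran from the *Dsg1a* start to the region upstream of *Dsg3* and took in the bodies of *Dsg1a*, *Dsg1b* and *Dsg4*. Of the 50-base words of *Dsg4* and its flanks 97.5% occurred once in the genome, a higher share than in *Dsg1a* or *Dsg1b*.

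Overlap with SOX4 was found for 3 of the 31 SOX11 peaks, 9.68% (interval 3.35 to 24.9%), near the 11.9% of the whole list. Measured from the other list, each of the 3 SOX4 peaks of the members overlapped a SOX11 peak, as did 94.5% of all SOX4 peaks. Promoters were taken as 1 kb upstream to 100 bp downstream of the start of any transcript of a protein-coding gene. They held 3 of the 31 SOX11 peaks, 9.68% (3.35 to 24.9%), against 23.3% of all SOX11 peaks. Wider limits moved this share, to 19.4% against 28.9% of the list with 1 kb to each side of a start and to 32.3% against 34.0% with 5 kb upstream and 1 kb downstream. With the starts of protein-coding transcripts only, the shares were 9.68% and 21.8%. The 3 peaks within the narrow limits were the *Dsg3*, *Jup* and *Pkp3* peaks described above. A further 12 lay in introns (38.7%, against 33.4% of the list), 2 in exons (6.45%, against 3.33%) and 14 between genes (45.2%, against 40.0%). The whole-list shares lay inside the members' intervals, which are wide with 31 peaks. Of the 13 cadherin gene peaks, 9 lay between genes and 2 in introns, while of the 18 plaque gene peaks 5 lay between genes and 10 in introns. The intervals of the shares overlapped between the roles, from 42.4 to 87.3% and from 12.5 to 50.9% between genes, and the difference was not tested.

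SOX proteins bind through a high-mobility-group domain, and AP-1 and TEAD factors are common at keratinocyte enhancers. The SOX core was present in 15 of 31 peaks, 48.4% (32.0 to 65.2%), compared with 58.5% of all SOX11 peaks. Of equally wide sequences shifted 2 kb from the members' peaks towards higher coordinates, whatever the gene's strand, 32.3% held it. With the 10-letter SOX motif and 1 mismatch the order turned round, with 51.6% of the members' peaks and 47.3% of the list. The AP-1 core was present in 12, 38.7% (23.7 to 56.2%), compared with 28.5% of the list and 3.23% of the shifted sequences. This share depended on the window and the motif. It was 22.6% within 100 bp around the centre, a window for which the share of the list is not given here. The 10-letter AP-1 motif gave 58.1% with 1 mismatch (41.1% of the list) and 16.1% without mismatch (11.01% of the list). The TEAD core was present in 3 member peaks, 9.68% (3.35 to 24.9%), compared with 22.8% of the list and 9.68% of the shifted sequences. At these small counts it was no more frequent in the members' peaks than beside them. Over the whole list it was more frequent in the peaks, at 22.8% against 13.4% of shifted sequences. The whole-list shares for SOX and AP-1 lay inside the members' intervals, and the TEAD share lay inside its interval too. Within the members' peaks 15 of 22 SOX core matches and 12 of 17 AP-1 core matches lay within 50 bp of the peak centre. Over the whole list 68.4% and 51.3% did.

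The exact cores were also counted by role. Among cadherin gene peaks 9 of 13 held the SOX core (69.2%, 42.4 to 87.3%) and 8 held the AP-1 core (61.5%, 35.5 to 82.3%), and 6 held both, which 17.2% of all SOX11 peaks did. Among plaque gene peaks 6 of 18 held the SOX core (33.3%, 16.3 to 56.3%) and 4 the AP-1 core (22.2%, 9.0 to 45.2%), and 1, in intron 1 of *Dsp*, held both. The intervals of the 2 roles overlapped for each core, and the difference was not tested. For SOX its direction depended on the motif, since the 10-letter SOX motif with 1 mismatch was in 6 of 13 cadherin gene peaks (46.2%) and 10 of 18 plaque gene peaks (55.6%). The 10-letter AP-1 motif with 1 mismatch was in 11 of 13 (84.6%) and 7 of 18 (38.9%), in the same order as the AP-1 core. At the plaque genes the SOX core was no more frequent in the peaks than 2 kb away, where 7 of 18 sequences held it (38.9%), while the AP-1 core was in 1 of these 18 (5.56%). At the cadherin genes 3 of 13 shifted sequences held the SOX core (23.1%), and 0 of 13 held the AP-1 core (interval up to 22.8%). Neither core was found in 9 of 18 plaque gene peaks and 2 of 13 cadherin gene peaks, or 11 of 31 together (35.5%), against 30.2% of all SOX11 peaks.

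**Figure D2:**
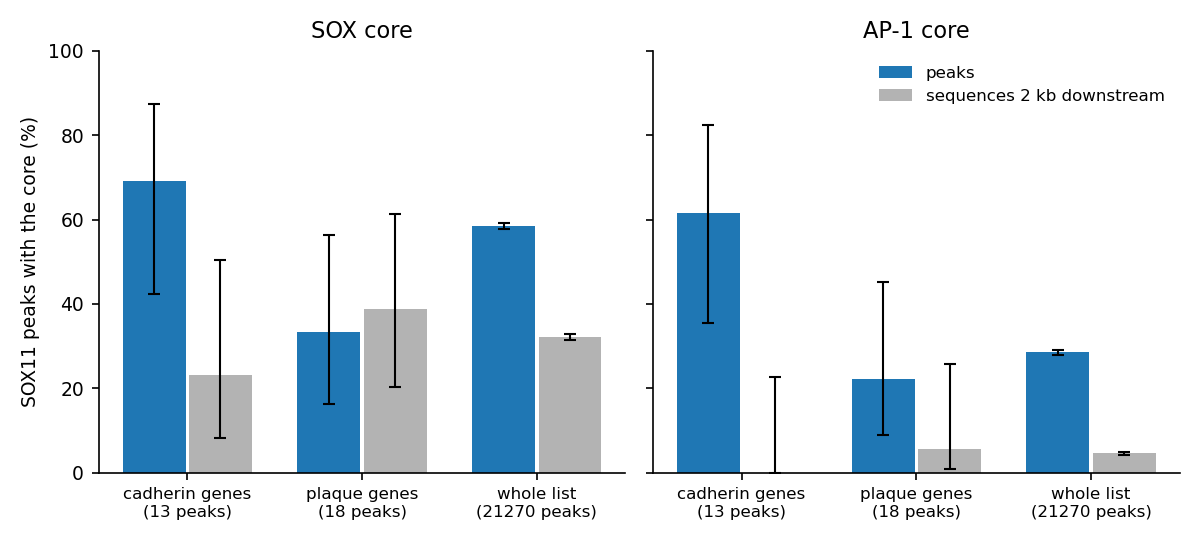
Percent of SOX11 peaks with an exact SOX core (left) or AP-1 core (right) at the cadherin genes, the plaque genes and in the whole list, in blue. Sequences shifted 2 kb towards higher coordinates, called downstream in the legend, are in grey, with bars for 95% Wilson intervals. The SOX core was in 69.2% of cadherin gene peaks and 33.3% of plaque gene peaks with overlapping intervals, while the 10-letter SOX motif with 1 mismatch gave the opposite order, 46.2% and 55.6%.

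Base composition differed between the same peaks. The median GC content was 45.0% in cadherin gene peaks and 55.0% in plaque gene peaks, and over the whole list both cores became rarer as GC rose. Among the 5473 SOX11 peaks with the lowest GC (24.6 to 46.5%), 75.6% held the SOX core and 39.5% the AP-1 core, and among the 5303 with the highest (58.9 to 84.1%) 36.8% and 6.47% did. The lowest group included 7 cadherin and 3 plaque gene peaks, and the highest included 0 and 6. The part of GC content in the difference between roles was not tested.

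Place in the list differed among the genes as well. The files do not say how peaks were ordered, but overlap with SOX4 fell from 62.0% in the first 2127 SOX11 peaks to 2.02% in the last 2127, and SOX core content from 89.3% to 46.8% between numbers 10636 and 12762 before reaching 53.7% at the end. AP-1 core content was 25.5% in the first 2127 and 34.3% in the last. The members' median number was 9547, against 10635.5 for the list, and 22 of 31 (71.0%, 53.4 to 83.9%) stood among its first 10635. Of these, 9 lay between numbers 8509 and 10635 and none between 10636 and 12762, so the count rests on peaks near the middle of the list. Among the first 8508 there were 13 of 31 (41.9%), near the 40.0% of the list that this covers. Plaque gene peaks had a median number of 6927.5 and cadherin gene peaks 10025. All peaks of *Jup*, *Pkp1*, *Pkp3*, *Dsg3* and *Dsg2* stood among the first 10635, whereas *Dsc1*, *Dsc2* and *Dsg1a* had none there. The order did not follow the roles gene by gene, since *Dsp*, a plaque gene, had a median number of 13308.5. Among the first 2127 were 3 member peaks, in *Dsg3*, *Dsc3* and *Jup*, and of these the *Dsg3* promoter peak alone overlapped SOX4.

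**Figure D3:**
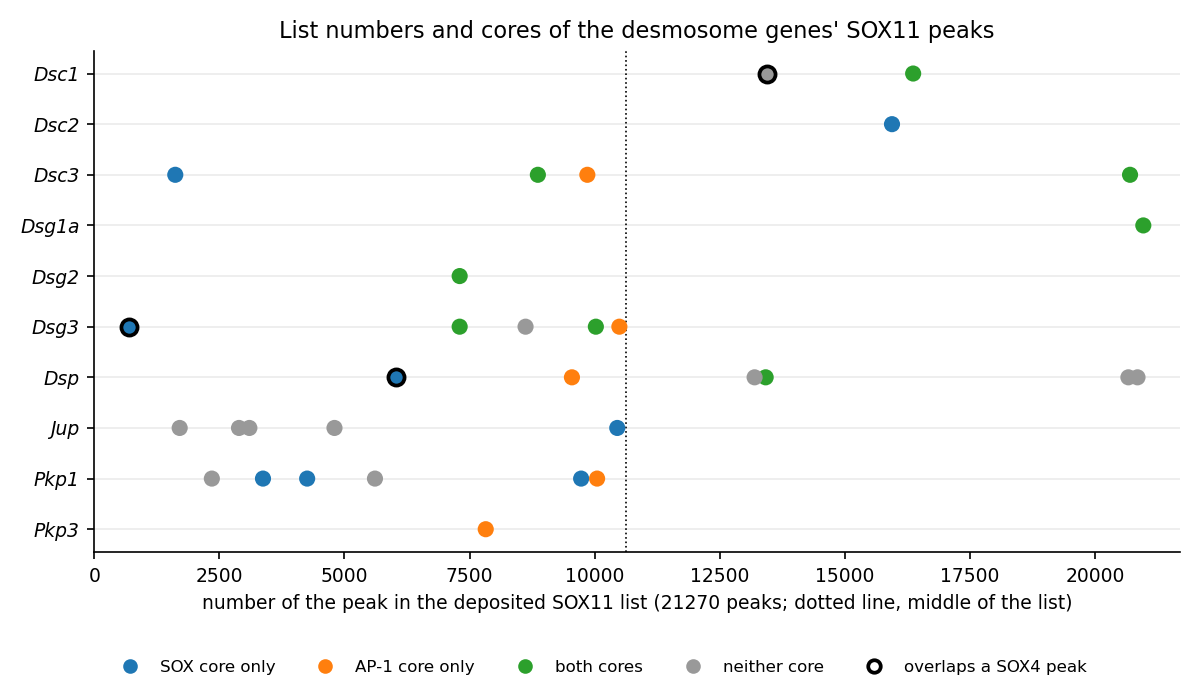
Number of each member SOX11 peak in the deposited list of 21270, by gene, coloured by the cores it holds and ringed in black where it overlaps a SOX4 peak. Shared sites stand at numbers 686, 6031 and 13454, the peak between *Dsg3* and *Dsg2* is drawn for both, and 4 of the 5 *Jup* peaks hold neither core.

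Genes of the neighbouring junctions were counted by the same rule. The members had a median of 3 SOX11 peaks, all protein-coding genes a median of 1. Of 9 other genes of desmosomes and corneodesmosomes, 7 had a SOX11 peak, with a median of 2, and none had a SOX4 peak. The most, 3 each, were at *Pkp4*, a plakophilin relative, and *Ppl*, which encodes the plakin periplakin, and *Dsg1b* and *Dsg4* had none. At adherens junctions, where classical cadherins are linked to actin through catenins, all 6 genes had SOX11 peaks, with a median of 4, and 5 had a SOX4 peak. *Ctnnb1*, encoding beta-catenin, had 11 SOX11 peaks and 2 SOX4 peaks. SOX4 peaks also lay at *Ctnnd1* (3), *Vcl* (3), *Cdh1* (1) and *Ctnna1* (1), which encode p120-catenin, vinculin, E-cadherin and alpha-catenin.

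Tight junctions, which seal the spaces between cells, had SOX11 and SOX4 peaks at all 5 listed genes, *Cldn1*, *Cldn4*, *Tjp1*, *Ocln* and *F11r*, with a median of 3 SOX11 peaks and the most, 6, at *Tjp1*. Hemidesmosomes, which fix basal cells to the basement membrane, had SOX11 peaks at 6 of 6 genes, with a median of 2. SOX4 peaks lay at 3 of these, *Itga6*, *Plec* and *Col17a1*, while *Dst*, the longest gene at 400.4 kb, had 8 SOX11 peaks and no SOX4 peak. Of the 4 keratin genes *Krt5* had 2 SOX11 peaks and 1 SOX4 peak, *Krt14* had 1 SOX11 peak and *Krt1* and *Krt10* had none. Gene length differed between the lists, with median bodies of 34.5 kb for the members, 58.8 kb for adherens junction genes, 27.1 kb for tight junction genes and 4.87 kb for the keratins, and its part in the counts was not tested. SOX4 peaks were thus at 3 of 10 desmosome members, 5 of 6 adherens junction genes and 5 of 5 tight junction genes, a difference that was not tested. With peaks in the gene body or its 10 kb flanks alone the counts were 3 of 10, 5 of 6 and 3 of 5, against 10.2% of all protein-coding genes, since the SOX4 peaks given to *Cldn1* and *Tjp1* lay at 123936 and -99217 bp from their starts, and 2 of 6 hemidesmosome genes had one, without *Plec*.

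**Figure D4:**
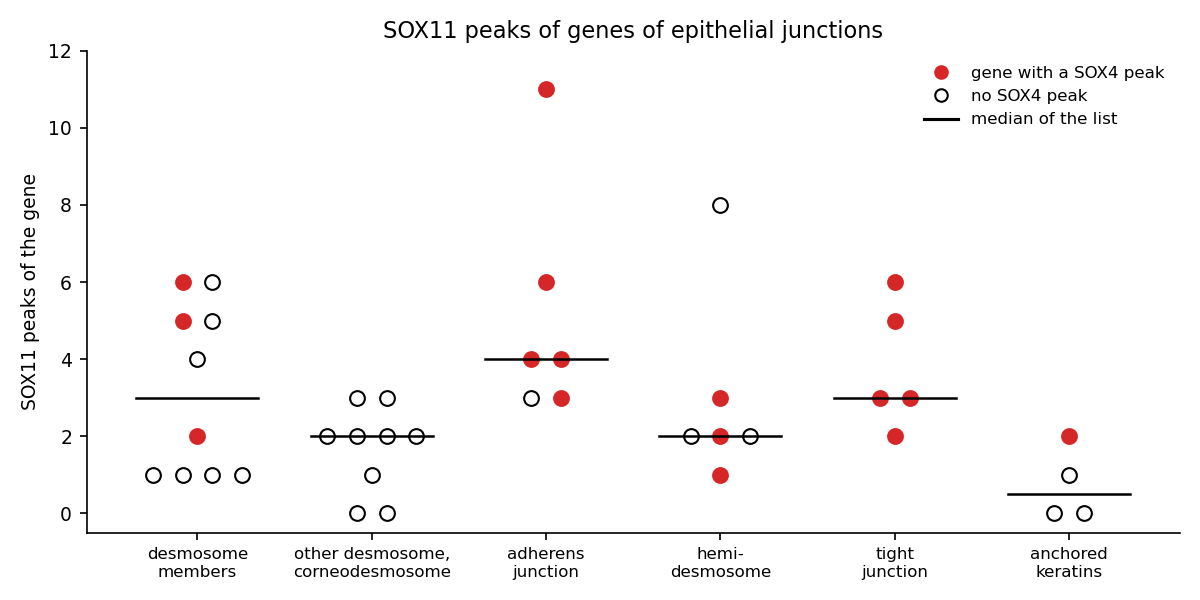
SOX11 peaks of each gene in 6 lists of epithelial junction and keratin genes, with filled points for genes that also have a SOX4 peak and lines for list medians. The members range from 1 to 6 peaks around a median of 3, and the highest point is *Ctnnb1* with 11.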

How the data were processed

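The members and gene lists were chosen with earlier results of these data known. The deposited peaks are HOMER calls (factor style) on 50 bp single-end reads, which the authors aligned to mm9 (Bowtie2). Duplicates (Picard), reads of low quality and blacklisted regions (bedtools) had been filtered out. Versions and thresholds are not given in the sources used here. The deposited values are start and end coordinates (no other kind of value), and a factor's replicates were combined before deposit. Removal of low-quality reads and the subtraction can take peaks out of repeated sequence.

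Deposited starts were taken as 0-based, and printed coordinates count from 1. SOX11 peaks were 258 bp wide and SOX4 peaks 340 bp, apart from a few narrower ones. Genes, transcripts and starts came from GENCODE M1. A peak was placed by its centre in promoters, then exons, introns or between genes. Overlap required at least 1 bp and was checked with bedtools 2.31.1. Cores were searched with Python 3.11.15 and pysam 0.24.0. Windows equal in length to the cluster were moved by 50% of that length, leaving out the first 3 Mb of each chromosome. The assignment of peaks, overlap, core search and word count were tested on simulated data.

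Named in the text are all members and, of the junction lists, genes with a SOX4 peak and the gene with most SOX11 peaks. *Dsg1b*, *Dsg1c*, *Dsg4*, *Krt14*, *Krt1*, *Krt10* and the genes nearest to outlying peaks were named after their values were seen. A gene of the junction lists is not reported here and was left out of their counts. Of 50 alternatives, 7 were added after seeing the data. No sequence of the cadherin genes is printed. Figures were drawn with matplotlib 3.10.9.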

Additional observations from a re-analysis of the deposited data

How the results depend on the processing

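For 10 results, 50 alternatives were computed, and 41 left the value within its counting interval or within 1.5 times the count. The other 9 changed it by more. Of those given below, the SOX motif with 1 mismatch, the 1 kb promoters and the 25 kb flank were among the 41. Taking as many early-listed SOX11 peaks as the SOX4 list holds, an alternative chosen after seeing the data and one that changes list length and list order together, left 4 SOX11 peaks at 4 members. The earlier-listed part of the SOX4 list, cut at its middle, left 1 SOX4 peak at 1 member. The share of all protein-coding genes with a peak is not given here for either cut, so these member counts have no background. The share of peaks with a SOX motif was 9.68% with the 10-letter SOX motif without mismatch, against 11.35% of all SOX11 peaks, and 51.6% with 1 mismatch, against 47.3%. The share with the AP-1 core was 22.6% within 100 bp around the centre, a window for which the share of all SOX11 peaks is not given here. With the 10-letter AP-1 motif the share was 58.1% with 1 mismatch (41.1% of all) and 16.1% without mismatch (11.01% of all). Promoters from 5 kb upstream to 1 kb downstream held 32.3% of the peaks (34.0% of all), and 1 kb to each side of a start held 19.4% (28.9% of all). With a flank of 25 kb *Pkp1* gained a SOX4 peak, which made 4 members. A wider flank can add peaks to any gene, and the share of all genes at 25 kb is not given here. No paired analysis was possible because each list pools both replicates of a factor and no replicate can be left out. The lists give no depth, so a gene without a peak may hold binding below the authors' threshold.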
